A study of Homo sapiens with 4 samples.

Results

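The comparison set 1 library of A673 cells transfected with siRNA against SMPD1 (siSMPD1) beside 1 library of A673 cells transfected with scrambled siRNA (control_SMPD1). A673 is an established line from an Ewing sarcoma, a tumour of bone and soft tissue driven by a fusion of EWSR1 and FLI1 (EWS-FLI1). Both libraries were chosen by their titles alone, which share the 48 h mark, and they are 2 of the 4 libraries of the series. Per the labels' protocols all cells were grown in Iscove's medium with serum, insulin and beta-mercaptoethanol, transfected with a lipid reagent and harvested after 48 h. The other 2 libraries are a GPR64 knockdown (siGPR64) and its own scrambled control (control_GPR64), and the latter served here as a second control to set values against. The protocol writes of SMPD1 siRNAs in the plural, and the sources used here give neither their number nor their sequences. No second knockdown arm and no rescue of SMPD1 was analysed here.

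Gene counts summed to 18849264 in siSMPD1, 19614913 in control_SMPD1, 2882854 in control_GPR64 and 2534861 in siGPR64. Levels are given as CPM, the count of a gene scaled to library size by TMM, and a series of 3 levels stands for control_SMPD1, siSMPD1 and control_GPR64, in that order. Fold values and log2 ratios are siSMPD1 against control_SMPD1 unless another control is named, with the 95% counting interval of the fold in brackets. A gene was tested where its mean CPM over the pair was at least 1, and counted as higher or lower where it differed at least 2-fold and the interval excluded equality. With 1 library on each side no difference has a replicate check, and the interval holds counting error only. In such bulk RNA, fewer cells of a type and less RNA per cell cannot be told apart.

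SMPD1 encodes acid sphingomyelinase, which works in the lysosome and at the outer face of the plasma membrane and splits sphingomyelin into ceramide and phosphocholine. Ceramide can be broken down by ceramidases to sphingosine, which sphingosine kinases convert to sphingosine-1-phosphate (S1P), a ligand of cell surface receptors. Ceramide also arises from serine and palmitoyl-CoA by de novo synthesis in the endoplasmic reticulum, and loss of acid sphingomyelinase in patients leads to storage of sphingomyelin in lysosomes.

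The libraries carried transcripts of Ewing sarcoma and hardly any of differentiated muscle, although the labels give the tissue as muscle. Of 8 Ewing markers 7 were tested and none differed by the rule. NR0B1, a nuclear receptor that EWS-FLI1 induces, was at 73.7, 70.1 and 143 CPM, and the homeobox gene NKX2-2 was at 90.1, 91.3 and 88 CPM. CD99, the surface antigen used to diagnose this tumour, was listed at 0 in all 4 libraries; it lies in the pseudoautosomal region shared by the sex chromosomes. Of 12 skeletal muscle markers 1 reached 1 CPM (MYH3, at 2.03, 1.43 and 1.71 CPM), and the myogenic factors MYOD1 and MYOG had no reads in either library of the pair. Of 8 immune markers none reached 1 CPM, and their summed level was 0.833 CPM in control_SMPD1 and 0.742 CPM in siSMPD1.

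SMPD1 itself stood at 414 CPM in control_SMPD1 and 91.7 CPM in siSMPD1. Its 4.52-fold lower level (4.29 to 4.76) was the second furthest from equality among all genes that were lower, when ranked by the bound of the interval nearest to equality. The target was at 52.8 CPM in control_GPR64 and 232 CPM in siGPR64, so the siSMPD1 library lay between the 2 scrambled controls. The log2 ratio of -2.17 against its own control became 0.80 against control_GPR64.

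The other sphingomyelinases did not share the lower level of SMPD1. SMPD2, a neutral sphingomyelinase, was at 8.69 CPM in control_SMPD1 and 10.9 CPM in siSMPD1, and SMPD4 was at 84.1 and 111 CPM. SMPDL3A, a relative of SMPD1 that acts on nucleotides, was at 23.9 and 28.4 CPM. Their log2 ratios of 0.33, 0.40 and 0.24 were all short of the rule and above 0. SMPD3, SMPDL3B and ENPP7 had a mean under 1 CPM and were not tested.

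Sphingomyelin and ceramide synthesis genes differed by less than 1.5-fold in either direction. The sphingomyelin synthases SGMS1 and SGMS2 and the related SAMD8 had log2 ratios of -0.30, -0.34 and -0.31, and the ceramide transfer protein gene COL4A3BP one of 0.00. SGMS1 and SAMD8 had the opposite sign against control_GPR64, at 0.47 and 0.44, as had DEGS1, CERS1 and ORMDL2 among the genes described next (0.54, 0.08 and 0.01). Among the serine palmitoyltransferase subunits, which catalyse the first step of de novo synthesis, SPTLC1 was at -0.35 and SPTLC2 at 0.29. KDSR, the reductase of the next step, was at -0.34, and DEGS1, which introduces the double bond of ceramide, at -0.11. Ceramide synthase ratios ran from -0.11 for CERS6 to 0.36 for CERS5, with CERS1 at -0.08, CERS2 at 0.29 and CERS4 at -0.10. The feedback inhibitors ORMDL1, ORMDL2 and ORMDL3 were at -0.32, -0.02 and -0.00, and the small subunit SPTSSA at 0.11. None of these 13 tested genes passed the rule, and the median of the de novo synthesis list was -0.08 (0.01 against control_GPR64).

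On the side of ceramide use, CERK, which phosphorylates ceramide, was at 118 CPM in control_SMPD1 and 177 CPM in siSMPD1, or 1.5-fold higher (1.42 to 1.59) and short of the rule. The lysosomal ceramidase ASAH1 had nearly equal levels of 50.2 and 50.1 CPM, and ACER3 had a log2 ratio of -0.12. In the S1P branch the kinase SPHK2, the phosphatase SGPP1 and the lyase SGPL1 were at 0.16, 0.15 and 0.16, and SPHK1, with 25 and 20 reads, at -0.29. The S1P receptors S1PR2, S1PR3 and S1PR5 were at 0.71, 0.52 and 1.16. S1PR5 was the single gene besides SMPD1 past the rule, at 0.625 and 1.43 CPM (12 and 27 reads). S1PR2, SPHK2 and SGPL1 had the opposite sign against control_GPR64, at -0.24, -0.06 and -0.63, and so had ASAH1, ACER3 and SPHK1, at 0.04, 0.72 and 1.51.

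**Figure D1:**
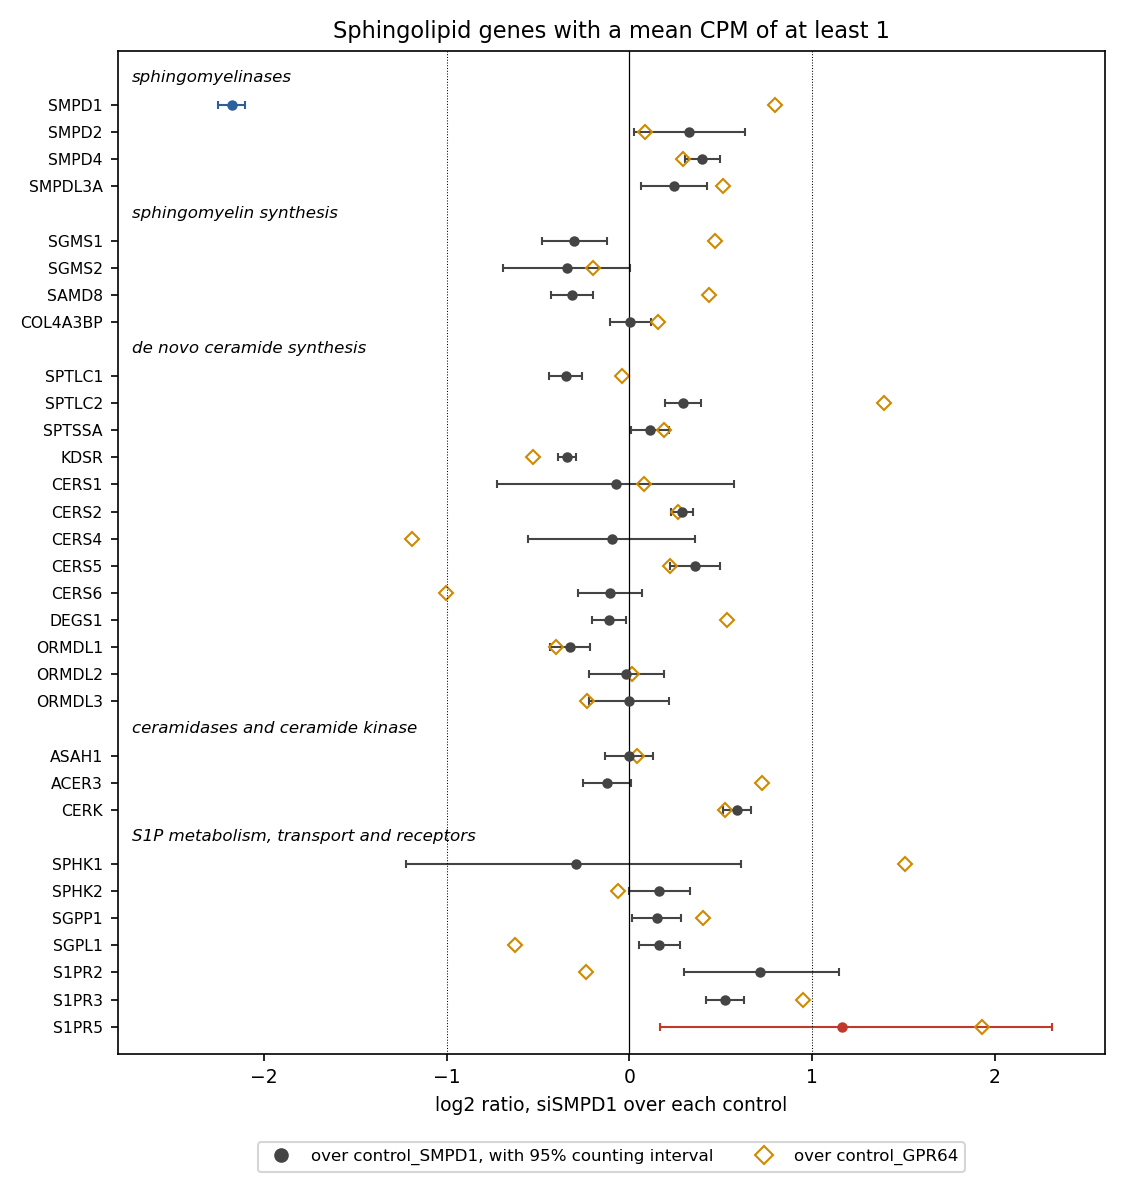
Log2 ratios of siSMPD1 (x axis) for sphingolipid genes with a mean CPM of at least 1, grouped by role. Filled circles are against control_SMPD1 with 95% counting intervals (blue lower, red higher, grey short of the rule), open diamonds against control_GPR64, and dotted lines mark 2-fold; SMPD1 lies at -2.17 with its own control and at 0.80 with the other.

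Across the transcriptome most genes stood close to their control. Of 12749 genes tested, 86.9% differed by less than 1.5-fold, with a median log2 ratio of -0.00, quartiles of -0.20 and 0.23, and 49.5% of ratios above 0. By the rule 318 genes (2.49%) were higher in siSMPD1 and 141 (1.11%) were lower, 459 or 3.6% in all. The 2 scrambled controls, set against each other by the same rule, differed at 1965 of 12798 genes (15.4%). Set against control_GPR64 in place of its own control, siSMPD1 differed at 2390 of 12887 genes (18.5%). Fewer genes thus separated siSMPD1 from its own control than separated either library from control_GPR64, which was sequenced more shallowly.

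Genes past the rule were mostly of low level. Of the higher genes 103 were under 1 CPM in control_SMPD1, and of the lower genes 27 were under 1 CPM in siSMPD1. Such genes passed the CPM minimum only through the library in which they were high, so list counts that hold them are given as descriptions. The quintile of genes with the lowest mean CPM (1.0 to 7.67) held 298 of the 459 genes, or 11.7% of that quintile, against 19 genes (0.745%) in the highest quintile. Of 38 genes that differed at least 4-fold, 29 were higher and 9 lower. The genes nearest to the fold limit were SLC2A11 just inside at 2-fold higher and FAM101B just outside, and TOR1AIP1 just inside at 2-fold lower and FAM86FP just outside. Against control_GPR64, SLC2A11 had a log2 ratio of -0.09. At the CPM limit, ADPRH (12 and 26 reads) was just inside and SNORD35B (15 and 23 reads) just outside.

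**Figure D2:**
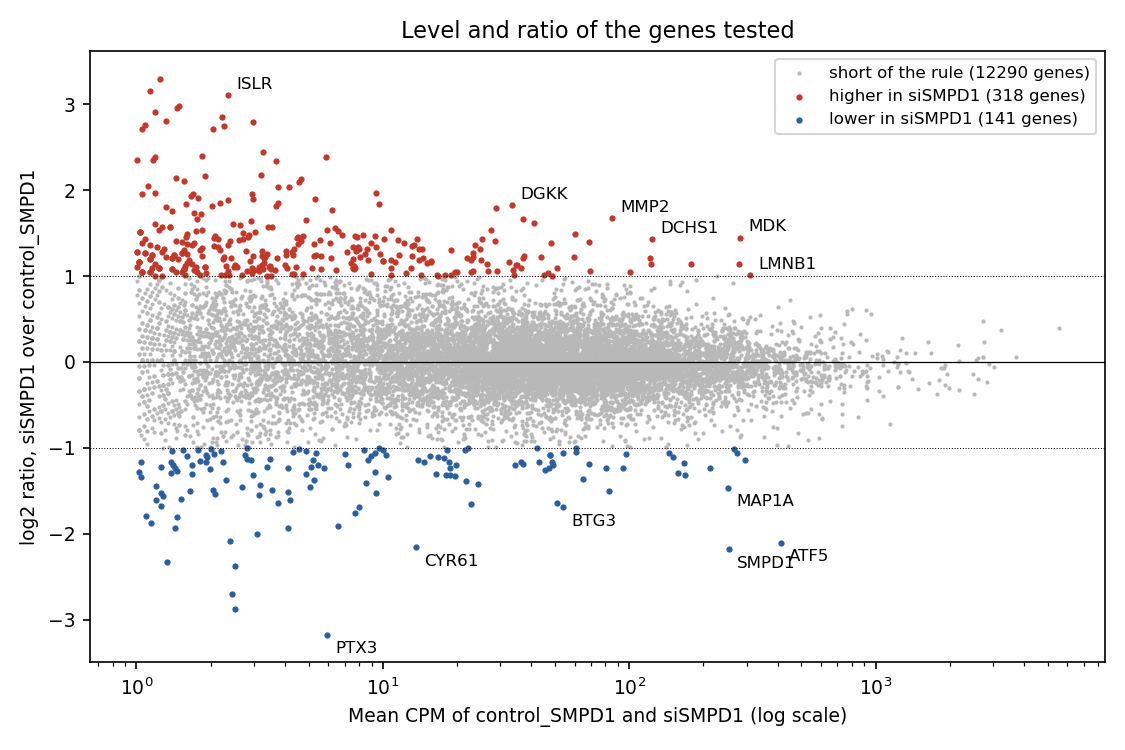
Mean CPM of the pair (x axis, log scale) and log2 ratio of siSMPD1 over control_SMPD1 (y axis) for the 12749 genes tested, 1 point per gene, with the 318 higher genes in red, the 141 lower in blue and 2-fold as dotted lines. Red points crowd at low CPM, while SMPD1 and ATF5 stand alone at the lower right.

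The ratio also moved with base composition. Over quintiles of genes ordered by the GC content of their transcripts, the median log2 ratio was -0.11 in the lowest and 0.18 in the highest. The share of higher genes was 0.857% in the lowest quintile and 5.26% in the highest, and that of lower genes 1.35% and 0.653%. Between the 2 controls the medians of the same quintiles were -0.01 and -0.00. They were -0.07 and 0.17 for siSMPD1 over control_GPR64, and -0.12 and 0.11 for siGPR64 over control_GPR64, so both knockdown libraries showed the trend. Higher genes had a median GC content of 56.8%, lower genes 45.0%, and all tested genes 48.0%. With each ratio centred on the median of genes of like GC content (an adjustment chosen after the data were seen), 264 genes were higher and 130 lower, of which 246 and 113 were among those already counted. Among genes named here, centring took ADAMTS10, CDKN1A, COL8A2, COL11A2, EFNA3, ITGA7, ITGB2, MFAP2, MMP15, PPFIA4, SLC2A11 and TFR2 under 2-fold on the higher side, with log2 ratios from 0.79 (ADAMTS10) to 0.99 (MMP15). On the lower side it did so for MMP13, PMAIP1, PRNP, RFX3, SLC7A11, SNORD57 and TOR1AIP1, with ratios from -0.98 (RFX3) to -0.89 (TOR1AIP1). GC-centred medians stand beside a number of the lists.

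**Figure D3:**
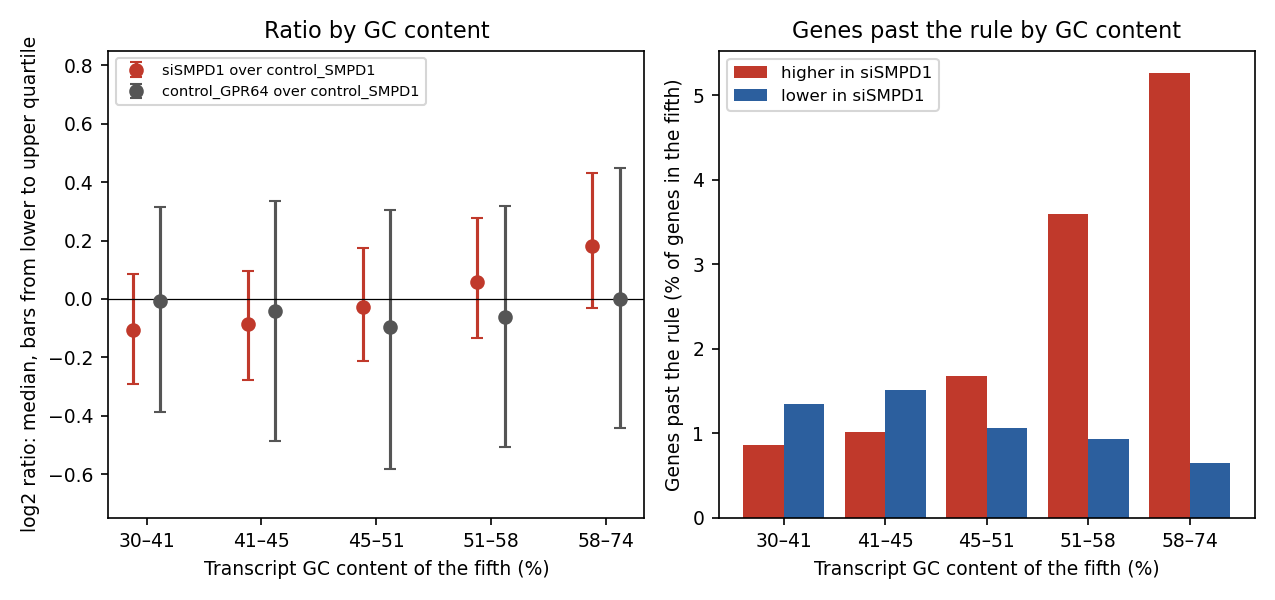
Left, median log2 ratio with lower and upper quartile (y axis) for quintiles of genes by transcript GC content (x axis, %), for siSMPD1 over control_SMPD1 (red) and for one control over the other (grey). Right, percent of genes in each quintile past the rule; higher genes make up 0.857% of the lowest quintile and 5.26% of the highest.

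Against the second control, 258 of the 318 higher genes and 111 of the 141 lower genes had siSMPD1 outside the range of both scrambled libraries, and 60 and 30 had it between them. These genes were chosen by their distance from control_SMPD1, so outside both means only the same direction against control_GPR64. The share over all genes tested was not taken, and the higher genes had a median of 7 reads in control_GPR64. The counts are thus a description and no check on the genes. In 175 higher and 81 lower genes the direction was kept at 2-fold or more against control_GPR64, and in 17 of each it was opposite at that size. Of the higher genes 23, and of the lower genes 5, had no read in control_GPR64, so their fitted ratio there depends on the added count. How far those 23 higher genes lie above control_GPR64 thus cannot be given. With control_GPR64 set at 3 counts, log2 ratios there were 2.42 for ARSI and 2.35 for CEND1, but 0.42 for ADPRH.

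Several of the higher genes were well covered and stood above both controls. The growth factor gene MDK (midkine), which binds heparan sulphate, was at 151, 412 and 274 CPM, 2.72-fold higher (2.61 to 2.84). ANKRD52, a subunit of protein phosphatase 6, was at 175, 383 and 89.1 CPM, 2.2-fold higher (2.11 to 2.29). LMNB1, which encodes lamin B1 of the nuclear envelope, was at 205, 412 and 306 CPM, 2.02-fold higher (1.94 to 2.1). The siSMPD1 library was the highest of the 3 for each of these genes. SYPL1, a relative of the vesicle protein synaptophysin, was at 111, 246 and 114 CPM, and the actin-severing protein gene GSN (gelsolin) at 76.5, 168 and 83.6 CPM. For both genes the 2 controls nearly coincided, and siSMPD1 was 2.21-fold (2.1 to 2.33) and 2.2-fold (2.07 to 2.34) above its own. The large cadherin gene DCHS1, whose product pairs with FAT4 on neighbouring cells, was at 66.9, 180.4 and 39.7 CPM. The kinase gene MAP3K3 (MEKK3) was at 31.5, 88.5 and 41.4 CPM. DCHS1 was 2.69-fold (2.53 to 2.88) and MAP3K3 2.81-fold (2.56 to 3.09) higher. PGF, the placental growth factor that binds the receptor FLT1, was at 20.2, 62.3 and 14.7 CPM.

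Other higher genes had steeper ratios at lower levels. The diacylglycerol kinase gene DGKK was at 14.7, 52.4 and 4.11 CPM, 3.55-fold higher (3.11 to 4.07). The secreted WNT antagonist gene FRZB was at 12.9, 44.9 and 2.74 CPM, 3.47-fold higher (3.01 to 4.02). The adhesion molecule gene MCAM (CD146) was at 17.9, 56.5 and 4.8 CPM, 3.16-fold higher (2.8 to 3.59). In all of these siSMPD1 was the highest and control_GPR64 the lowest. The carboxypeptidase-like gene CPXM1 was at 3.8, 14.9 and 7.54 CPM and the scavenger receptor gene SCARF2 at 1.72, 7.58 and 3.77 CPM. CSDC2, an RNA-binding protein gene, was at 1.87, 9.91 and 1.71 CPM, 5.23-fold higher (3.69 to 7.78). By contrast IL2RB, the beta chain of the interleukin-2 receptor, was at 0.312, 2.6 and 7.88 CPM and the apolipoprotein L gene APOL4 at 1.2, 6.15 and 6.17 CPM. These last 2 genes were 7.75-fold and 5.05-fold higher than in control_SMPD1, but IL2RB was lower than in control_GPR64 (log2 ratio -1.58) and APOL4 level with it (-0.00). NOTCH3, a receptor of the Notch pathway, also lay near control_GPR64, with 26.6, 69.6 and 69.2 CPM.

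Among lower genes PTX3, a secreted pentraxin of innate immunity, differed most from its control, at 10.7, 1.17 and 2.06 CPM and 9.02-fold lower (5.91 to 15). Its level in control_GPR64 rests on 6 reads, and the log2 ratio there was -0.79. The microtubule-associated protein gene MAP1A was at 369.6, 134 and 113 CPM, 2.76-fold lower (2.63 to 2.89), and slightly above control_GPR64 (log2 ratio 0.25). MAN2A1, a Golgi mannosidase that trims N-glycans, was at 298, 126 and 265 CPM, 2.36-fold lower (2.25 to 2.48). Here both controls stood above siSMPD1. The same held for the mitochondrial carrier gene SLC25A24 at 122, 43.1 and 88.7 CPM, for BTG3 at 82.3, 25.5 and 75 CPM and for the orphan transporter gene SLC35E1 at 76.8, 24.6 and 58.2 CPM. PRNP, the prion protein gene, was at 357, 177 and 234 CPM, and UBFD1 at 197, 94.2 and 124 CPM. In both of these control_GPR64 lay between the libraries of the pair. SULT1E1, the oestrogen sulphotransferase, was at 12.2, 3.76 and 25 CPM, and the cystatin gene CSTA at 4.94, 1.22 and 5.82 CPM. ACADSB, a mitochondrial dehydrogenase of branched-chain acyl-CoA, was at 35.5, 13.3 and 37.7 CPM. Against these, NEB (nebulin), an actin-binding protein of muscle, was at 11.9, 3.5 and 1.03 CPM, 3.38-fold lower than in control_SMPD1 and above control_GPR64 (log2 ratio 1.72, on 3 reads).

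**Figure D4:**
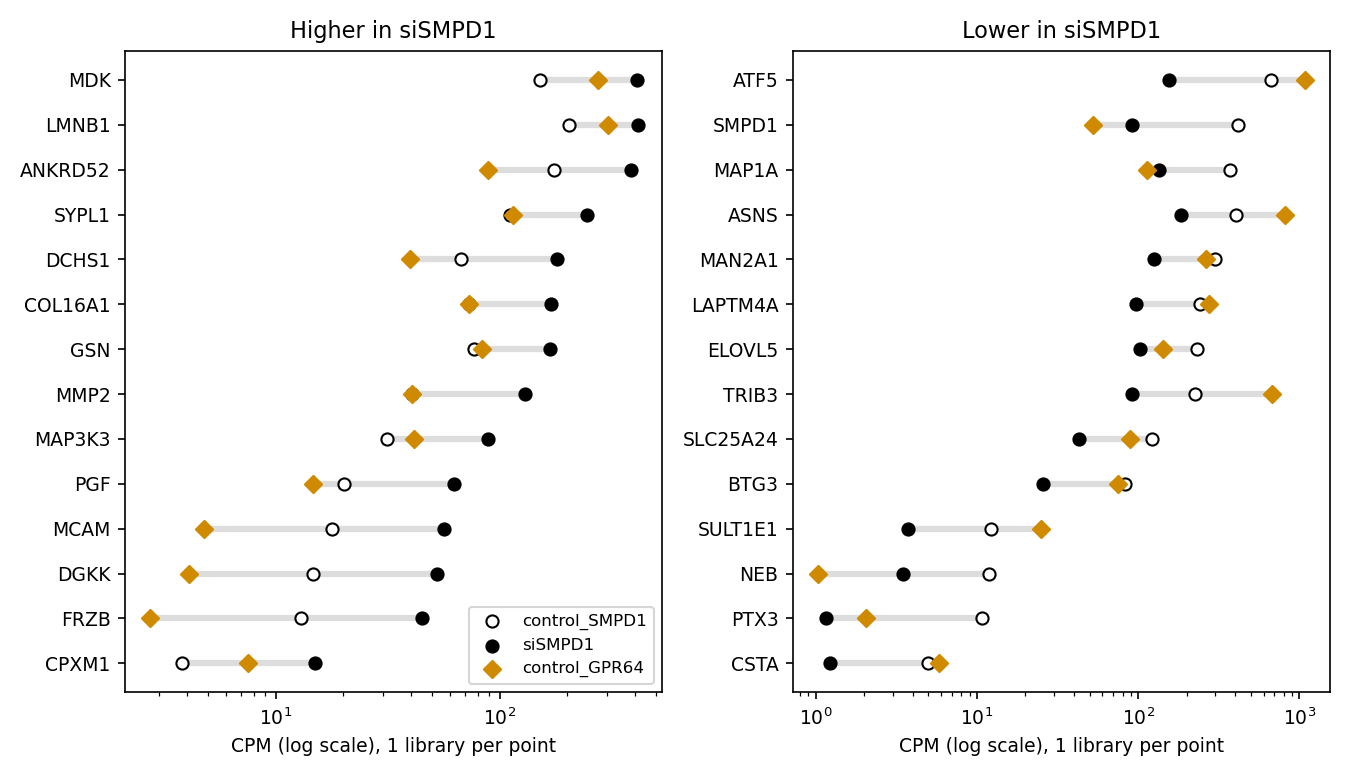
CPM (x axis, log scale) of 14 genes higher and 14 genes lower in siSMPD1, with 1 point per library: control_SMPD1 open, siSMPD1 black, control_GPR64 orange diamonds. On the left siSMPD1 is the highest library for every gene drawn, and on the right control_GPR64 lies below siSMPD1 for SMPD1, MAP1A and NEB. The genes drawn are a selection made with their values known. Of all 318 higher genes 60 had siSMPD1 between the 2 controls, among them BGN and CDKN1A, which are not drawn.

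Regulators of the integrated stress response (ISR) leaned to lower values. In this response kinases phosphorylate the initiation factor eIF2, translation of the transcription factor ATF4 goes up, and ATF4 induces amino acid synthesis, transport and tRNA charging genes. Of 21 regulators tested, 4 were lower, none was higher, and 17 had a log2 ratio below 0. The median was -0.49, against -0.00 over all genes tested, of which 1.11% were lower by the rule. ATF5, a bZIP factor that is itself a target of the response, was at 670.5, 156 and 1089 CPM, and the pseudokinase gene TRIB3 at 225, 91.5 and 671 CPM. ATF3, another bZIP factor, was at 21.1, 9.86 and 82.2 CPM, and the stress cytokine gene GDF15 at 3.02, 1.06 and 69.9 CPM. In all of these genes siSMPD1 was the lowest library and control_GPR64 the highest. Short of the rule were DDIT3 (CHOP) at 61.7 and 35.4 CPM, SESN2 at 67.4 and 41.1 CPM, INHBE at 5.36 and 2.81 CPM and CHAC1 at 40.8 and 29 CPM. ATF4 mRNA was at 415 and 322 CPM, and DDIT4, an inhibitor of mTORC1, was an exception at 104 and 158 CPM, with 212 CPM in control_GPR64. The list median was -1.67 against control_GPR64, which itself lay above control_SMPD1 by a median of 1.03.

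The sequences upstream of ASNS and ATF3 are shown as selected examples of lower genes that hold the letters TGATGNAA. ATF4 with its partners binds composite sites of these letters. Windows of other lower genes such as ATF5 and TRIB3 are not shown, and most promoters of lower genes lacked the letters. Promoters come from RefSeq (GRCh38.p14) and run 5′ to 3′ on the strand of the gene over the 250 bases before its start. The source held 35116 promoters for 27305 symbols. Only the first listed for each symbol was used, so further promoters of a gene were not searched. The ASNS window is chr7:97872409-97872658 on the minus strand and the ATF3 window is chr1:212565157-212565406 on the plus strand. Capitals mark the letters TGATGNAA, at 68 bases before the start of ASNS and at 191 bases before that of ATF3.
ASNS: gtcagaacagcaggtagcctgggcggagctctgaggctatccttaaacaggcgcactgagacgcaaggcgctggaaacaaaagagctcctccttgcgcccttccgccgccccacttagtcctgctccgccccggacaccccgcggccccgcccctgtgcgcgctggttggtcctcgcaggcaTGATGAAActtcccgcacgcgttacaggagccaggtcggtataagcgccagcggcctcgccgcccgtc
ATF3: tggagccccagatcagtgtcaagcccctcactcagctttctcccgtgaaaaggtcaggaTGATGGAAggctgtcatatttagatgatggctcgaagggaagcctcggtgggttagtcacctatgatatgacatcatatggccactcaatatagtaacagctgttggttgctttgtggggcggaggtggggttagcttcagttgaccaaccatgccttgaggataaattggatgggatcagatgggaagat
Searched on both strands, these letters were found in 8 of 109 promoters of lower genes (7.34%) and in 1 of 216 promoters of higher genes (0.463%). They were in 135 of 9959 promoters of tested genes (1.36%) and 870 of the 27305 promoters used over all symbols (3.19%). Of the tested members of the ISR, amino acid and tRNA synthetase lists with a promoter in the table, 10 of 89 (11.2%) held them. A match of letters is a description of the window and not a site of binding.

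Enzymes of amino acid synthesis leaned the same way as the regulators. Of 26 enzymes tested outside the serine pathway, 3 were lower (1.11% over all genes tested) and none was higher, and the median was -0.43. ASNS, which makes asparagine, was at 407, 185 and 810.1 CPM, 2.2-fold lower (2.12 to 2.29). CTH, the last enzyme of transsulphuration to cysteine, was at 64.2, 26.9 and 195 CPM, and PCK2, the mitochondrial phosphoenolpyruvate carboxykinase, at 133, 56.3 and 224 CPM. As with the regulators, control_GPR64 was the highest library for these 3 genes. BCAT1 and ASS1 followed short of the rule, with log2 ratios of -0.77 and -0.73. In the serine and folate list 1 of 24 members was lower, and the median was -0.21. PSAT1, MTHFD2 and PSPH stopped short of 2-fold, at 1.97-fold (1.9 to 2.03), 1.95-fold (1.89 to 2.02) and 1.82-fold (1.69 to 1.95) lower. ALDH1L2, the member past the rule, was at 93.5, 36.4 and 27.7 CPM and had a log2 ratio of 0.39 against control_GPR64.

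Medians of amino acid transporters and tRNA synthetases were below 0 as well. Among 26 transporters tested 2 were lower (1.11% over all genes tested), and the median was -0.15. SLC7A11, the cystine importer, was at 371, 177 and 285 CPM, 2.09-fold lower (2.01 to 2.18). SLC7A7 was at 3.85, 1.75 and 1.03 CPM and had a ratio of 0.74 against control_GPR64, on 3 reads. SLC7A1, a transporter of cationic amino acids, was at -0.79. Of 23 cytosolic tRNA synthetases 21 had a ratio below 0, their median was -0.44, and none passed the rule. GARS was at 763, 412 and 1023 CPM, IARS at 915, 547 and 1098 CPM and YARS at 481, 284 and 589.9 CPM. The 17 mitochondrial synthetases had a median of -0.12. Mitochondrial chaperones and proteases had a median of -0.17 over 25 genes, with none past the rule and the protease gene LONP1 at 245 and 159 CPM. ER chaperones had a median of -0.09 and heat shock genes one of -0.05, again with none past the rule, and against control_GPR64 these medians were 0.25 and 0.45.

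**Figure D5:**
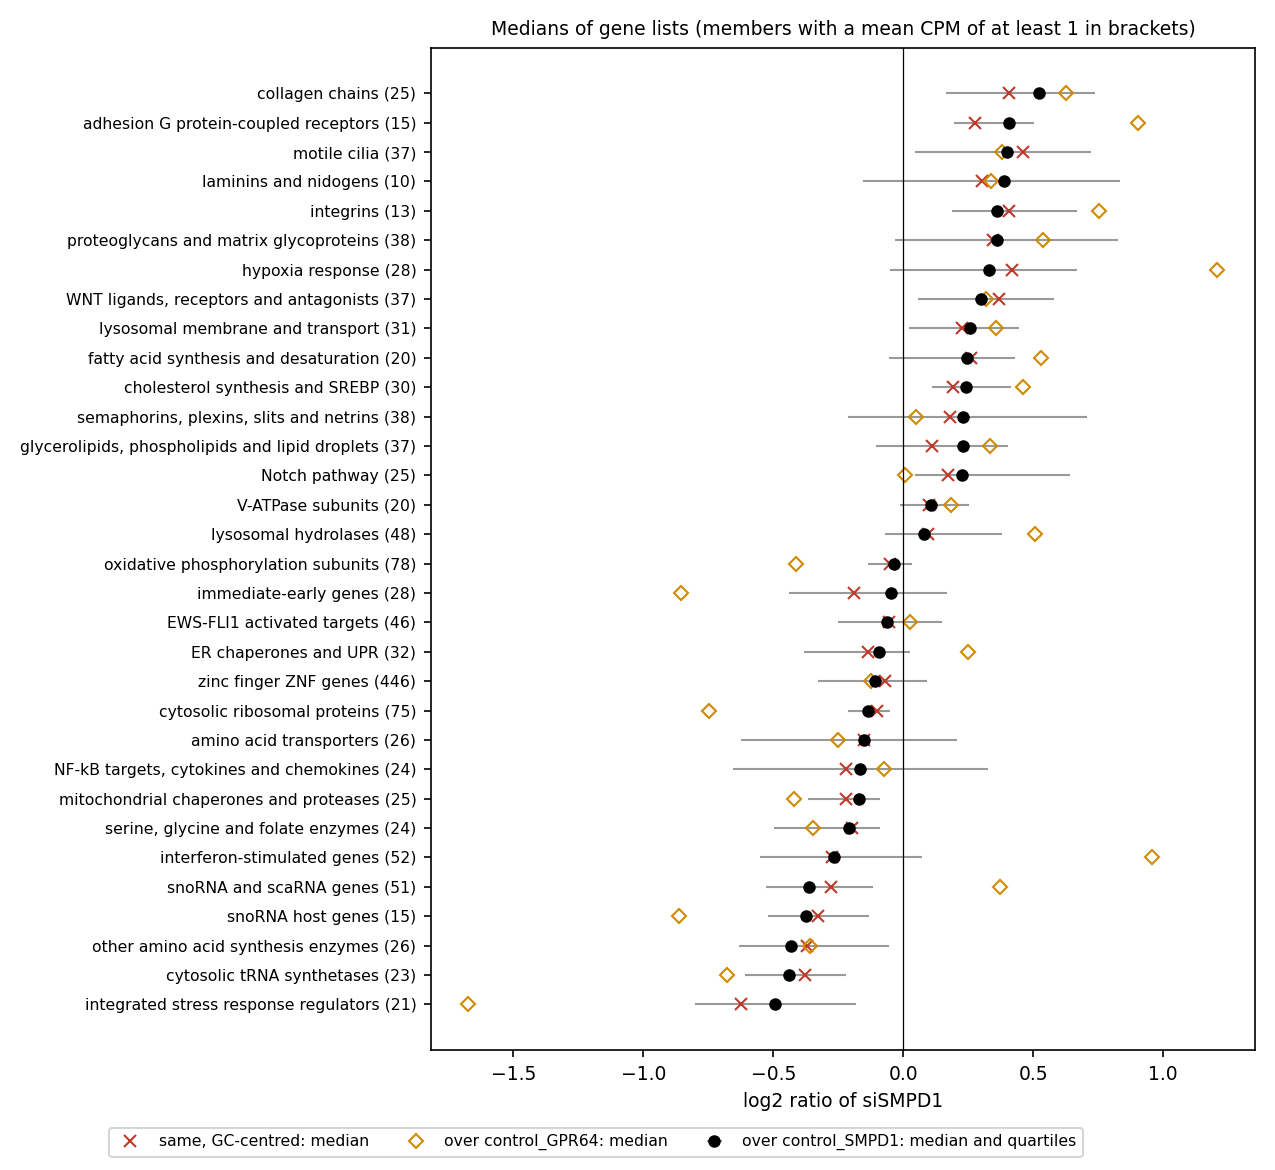
Median log2 ratio (x axis) of the tested members of 32 gene lists, whose number of tested members stands in brackets. Black circles with quartile bars are siSMPD1 over control_SMPD1, red crosses the same after GC centring and orange diamonds siSMPD1 over control_GPR64; ISR regulators lie lowest at -0.49 and collagen chains highest at 0.52.

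Among genes of the lysosome, the compartment in which acid sphingomyelinase works, hydrolases and proton pump subunits differed little as groups from control_SMPD1. Membrane and transport genes leaned to higher values. Of 48 lysosomal hydrolases other than SMPD1 none passed the rule, and the median was 0.08, or 0.51 against control_GPR64. Of 20 subunits of the proton pump none passed it either, with a median of 0.11. Lysosomal membrane and transport genes had a median of 0.26, with 25 of 31 above 0, yet the 2 members past the rule were both lower. Over all genes tested 49.5% of ratios were above 0 and 1.11% of genes were lower. LAPTM4A, a membrane protein of late endosomes and lysosomes, was at 241, 96.8 and 275 CPM, 2.49-fold lower (2.36 to 2.63). LAMP3 was at 4.22, 0.795 and 2.74 CPM and passed the CPM minimum only through control_SMPD1. Both were lower than in either control. LAMP1 and LAMP2, the main glycoproteins of the lysosomal membrane, were short of the rule at 127 and 245 CPM and at 80.2 and 130.0 CPM. CYBASC3, a cytochrome b561 of lysosomes, was at 45.2, 93.8 and 32.9 CPM. In the axis of the factors TFEB and TFE3, FNIP2, a partner of folliculin, was 2.25-fold lower (1.91 to 2.65), the single one of 13 members past the rule. The median of that list was -0.08, and 0.58 against control_GPR64.

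Sterol and fatty acid genes leaned to higher values, mostly under 2-fold. In the cholesterol list 26 of 30 genes had a ratio above 0, the median was 0.24 (0.19 GC-centred), and none passed the rule. HMGCS1, the synthase before HMG-CoA reductase, was at 483, 706 and 292 CPM, and INSIG2, a sterol sensor of the ER, at 33.6, 49 and 24.3 CPM. Targets of the sterol receptor LXR had a median of 0.24 (0.15 GC-centred), with the ubiquitin ligase gene MYLIP at 0.90 and APOE at 0.60. Fatty acid synthesis genes had a median of 0.25, but their single member past the rule was lower. This was ELOVL5, an elongase of polyunsaturated fatty acids, at 232, 103 and 142 CPM, 2.26-fold lower (2.14 to 2.38). Glycerolipid and lipid droplet genes had a median of 0.23 (0.11 GC-centred) and 2 of 37 members were higher (2.49% over all genes tested). These were PNPLA3, at 14.1, 40.9 and 14.7 CPM, and CIDEB, a lipid droplet protein gene with 11 reads in control_SMPD1, 30 in siSMPD1 and 0 in control_GPR64. Among phospholipases PLCG2 was lower, at 6.56, 1.7 and 4.11 CPM.

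Genes of the extracellular matrix and its receptors leaned to higher values. Of 25 collagen chains 23 had a ratio above 0, 4 were higher and none was lower, with a median of 0.52. Over all genes tested 49.5% of ratios were above 0 and 2.49% of genes were higher. Collagen transcripts are rich in GC (median 61.3%), and the GC-centred median was 0.41, with COL8A2 (0.96) and COL11A2 (0.86) then short of 2-fold. COL16A1, a fibril-associated collagen, was at 73, 169 and 73 CPM, with level controls, and was 2.32-fold higher (2.18 to 2.47). COL2A1 was at 0.729, 5.19 and 1.03 CPM, COL8A2 at 0.989, 2.23 and 1.03 CPM and COL11A2 at 1.82, 3.82 and 2.4 CPM, so these rest on few reads. COL2A1 and COL8A2 passed the CPM minimum only through siSMPD1, so the count of higher chains is a description. COL12A1 (30.2 and 58.6 CPM) and COL1A2 (623 and 915 CPM) were short of the rule. The 7 fibroblast markers, which include collagen I, summed to 1047 CPM in control_SMPD1, 1386 CPM in siSMPD1 and 473 CPM in control_GPR64. COL1A2 alone was 292 CPM higher in siSMPD1 than in control_SMPD1. The 5 markers tested had a median log2 ratio of 0.13 (-0.04 GC-centred), with 1 past 1.5-fold in each direction. Their part in the matrix values was not tested. Laminins and nidogens had 1 higher gene of 10 and a median of 0.39, and integrins 3 of 13 and a median of 0.36 (0.41 GC-centred), with none lower. ITGA7, a laminin receptor chain, was at 17.4, 36.3 and 12.7 CPM, and ITGB2 at 9.37, 20.8 and 9.25 CPM. Both stood above both controls, and both were short of 2-fold after GC centring (0.89 and 0.98). ITGA4 and LAMA5 stood above control_SMPD1 and below control_GPR64, at 2.55, 6.09 and 11.3 CPM and 5.52, 16 and 21.6 CPM.

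Proteoglycans and matrix glycoproteins moved both ways. Of 38 tested, 5 were higher and 2 lower (2.49% and 1.11% over all genes tested), with a median of 0.36 (0.34 GC-centred). Of the higher genes 3 were under 1 CPM in control_SMPD1. BGN (biglycan) was at 35.9, 83.8 and 117 CPM, the syndecan gene SDC1 at 0.729, 1.85 and 2.06 CPM and MFAP2, of elastic microfibrils, at 11.1, 22.3 and 23.6 CPM. All 3 were higher than in control_SMPD1 and below control_GPR64. ISLR was at 0.468, 4.24 and 0.685 CPM and VCAN (versican) at 0.625, 1.64 and 0 CPM. SPOCK1 was likewise below control_SMPD1 and above control_GPR64 (log2 ratio 0.30). The lower genes OGN and SPOCK1 were at 1.82, 0.583 and 0 CPM and at 4.63, 1.7 and 1.37 CPM, with 0 and 4 reads in control_GPR64. Of matrix proteases MMP2, a gelatinase, was at 40.7, 130.1 and 40.4 CPM, with level controls, and its activator MMP14 at 152, 302 and 138 CPM, 1.99-fold higher and just short of the rule. The inhibitor TIMP2, which joins MMP2 and MMP14 in the activating complex, was at 113 and 214 CPM. MMP15 was 2.32-fold and ADAMTS10 2.02-fold higher, both short of 2-fold after GC centring (0.99 and 0.79). The collagenases MMP8 and MMP13 were lower, at 2.39, 0.954 and 0.343 CPM and 1.87, 0.901 and 0 CPM. They had 1 and 0 reads in control_GPR64, too few to place siSMPD1 above or below it.

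Guidance cues and their receptors held 7 higher genes and no lower gene among 38 tested, with a median of 0.23 (0.18 GC-centred) and a median GC content of 58.1%. Over all genes tested 2.49% were higher and 1.11% lower, and 4 of these higher genes were under 1 CPM in control_SMPD1. The secreted repellents SEMA3F and SEMA3B were at 2.24, 8.37 and 11.6 CPM and 0.885, 2.6 and 0.685 CPM. The membrane-bound SEMA4B was at 15.2, 34.7 and 13.7 CPM, the lipid-anchored SEMA7A at 0.677, 1.59 and 1.37 CPM, and its receptor PLXNC1 was 3.72-fold higher (2.38 to 6.2). The netrin genes NTN3 and NTNG2 were at 0.781, 2.65 and 2.74 CPM and 0.937, 2.44 and 2.06 CPM. SEMA3F and NTN3 lay at or below their level in control_GPR64, with log2 ratios of -0.47 and -0.05. NTN1 and its receptor gene UNC5D had log2 ratios of -0.84 and -0.98, short of the rule. Ephrins and Eph receptors had 1 higher gene of 13, the ligand EFNA3 at 7.13, 14.4 and 4.8 CPM.

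Among cadherins CDH6, besides DCHS1, was higher at 3.02, 8.8 and 2.06 CPM, and all 4 lower members of 69 were protocadherins, PCDH1, PCDHGA5, PCDHA1 and PCDHGB3. Over all genes tested 1.11% were lower and 2.49% higher. PCDH1, PCDHGA5 and PCDHA1 were under 1 CPM in siSMPD1 and passed the CPM minimum only through control_SMPD1. PCDH1 was at 1.82, 0.477 and 4.11 CPM and PCDHGA5 at 2.29, 0.742 and 1.71 CPM. PCDHA1 had 1 read in control_GPR64 and the opposite sign there (1.20). The clustered protocadherin genes share their last exons, so counting of single members is uncertain. WNT pathway genes had 2 higher members and a median of 0.30 (0.37 GC-centred) over 37 genes. The secreted protein gene DKK3 was at 1.41, 4.03 and 1.03 CPM and the ligand gene WNT3 at 0.989, 2.12 and 2.06 CPM, and CTNNB1 (beta-catenin) was short of the rule at 101, 194 and 218 CPM, below control_GPR64. Among growth factors and receptor kinases 4 of 48 were higher and none lower, and the median was 0.04 (-0.02 GC-centred). Beside MDK and PGF these were FGF1, at 3.33, 7.84 and 0.343 CPM, and the VEGF receptor gene KDR, at 0.833, 1.96 and 0.343 CPM. KDR, which like WNT3 passed the CPM minimum only through siSMPD1, was the single tested one of 6 endothelial markers. These 6 summed to 1.87 CPM in control_SMPD1 and 2.65 CPM in siSMPD1.

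Targets of the YAP family of coactivators that were lower included the matricellular genes CYR61, at 22.3, 4.98 and 19.9 CPM, and CTGF, at 7.6, 2.91 and 9.25 CPM. WWTR1, which encodes one of these coactivators, was at 205, 95.1 and 128 CPM, 2.16-fold lower (2.04 to 2.28). CYR61 and CTGF were lower than in both controls, and WWTR1 was nearer to control_GPR64 (log2 ratio -0.43). Of 27 members tested 3 were lower and 1 higher (ANKRD37), where 1.11% and 2.49% of all genes tested were. The list had a median of 0.01 (-0.08 GC-centred) and quartiles of -0.73 and 0.23. At 1.5-fold 8 members were lower and 1 higher, where 5.2% of all genes tested were lower and 7.91% higher. The CTGF promoter (RefSeq GRCh38.p14, chr6:131951373-131951622, minus strand, the 250 bases before the start) is shown because it is a well known target of the TEAD factors, with which these coactivators act. Capitals mark GGAATG, at 169, 104 and 95 bases before the start.
CTGF: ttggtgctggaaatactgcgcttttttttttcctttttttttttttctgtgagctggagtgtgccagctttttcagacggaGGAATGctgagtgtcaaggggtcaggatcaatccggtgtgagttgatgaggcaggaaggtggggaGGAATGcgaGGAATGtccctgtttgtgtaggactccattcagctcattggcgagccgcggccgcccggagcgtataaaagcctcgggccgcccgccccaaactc
On either strand GGAATG was in 10 of 109 promoters of lower genes (9.17%), 11 of 216 of higher genes (5.09%) and 922 of 9959 of tested genes (9.26%). The share among lower genes was thus near that of all tested genes.

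Immediate-early genes, which serum and growth factors induce within minutes, had 4 lower members and 1 higher member of 28 (CYR61, FOS, ATF3 and EGR3 lower), with a median of -0.05 (-0.86 against control_GPR64). Over all genes tested 1.11% were lower and 2.49% higher. FOS was at 13.1, 5.41 and 14.7 CPM, and EGR1 was short of the rule at 46.7, 27.3 and 410.0 CPM. EGR3 was at 2.08, 1.01 and 24.3 CPM. NR4A2, the higher member, was at 0.781 and 1.59 CPM with 0 reads in control_GPR64, and passed the CPM minimum only through siSMPD1. ETV4, an ETS factor induced by ERK signalling, was 2.24-fold lower (1.87 to 2.7), and its relative ETV5 was short of the rule at 79.6 and 43.9 CPM.

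Genes of inflammation and interferon response that were lower than in control_SMPD1 mostly lay near control_GPR64 or had too few reads there to be placed. IL8 was at 4.42, 0.583 and 1.03 CPM, IL1B at 1.87, 0.636 and 0.685 CPM and the chemokine genes CXCL10 and CXCL11 at 3.12, 1.06 and 0.343 CPM and 2.24, 0.424 and 0 CPM. CXCL10 and CXCL11 rest on 1 and 0 reads in control_GPR64, too few to place siSMPD1 above or below it. GBP2, an interferon-induced GTPase gene, was at 13.9, 4.82 and 5.14 CPM, and PARP11 at 10.4, 2.76 and 11 CPM. Only PARP11 of these was also at least 2-fold lower than control_GPR64. Of 52 interferon-stimulated genes tested 4 were lower and 2 higher, where 1.11% and 2.49% of all genes tested were. Their median was -0.27 against control_SMPD1 and 0.96 against control_GPR64 (0.94 with the gene that had no read there set at 3 counts). Sensors of double-stranded RNA, which transfected siRNA can engage, had a median of -0.00 over 18 genes, with none past the rule, and 0.79 against control_GPR64. In the RNA interference machinery TSNAX, a subunit of the C3PO nuclease, was lower at 59.4, 26.4 and 55.5 CPM, and DICER1 was short of the rule, 1.96-fold lower (1.86 to 2.06).

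Of 85 listed genes of motile cilia 37 were tested. FOXJ1, ZMYND10 and WDR63 were under 1 CPM in control_SMPD1 and entered only through siSMPD1, so no count over the list is given. FOXJ1, the transcription factor of motile ciliogenesis, had 4 reads in control_SMPD1, 39 in siSMPD1 and 0 in control_GPR64. ZMYND10, needed to assemble dynein arms, had 4, 43 and 1 reads. TEKT2 was at 2.39, 6.62 and 4.11 CPM, and DNAH9, an outer arm dynein heavy chain, at 4.16, 10.2 and 0.343 CPM. In contrast DNAH10, an inner arm heavy chain, was lower at 6.35, 2.07 and 7.54 CPM, and so was RFX3, another factor of ciliogenesis, at 7.23, 3.44 and 11.6 CPM. WDR63 was at 0.989, 2.07 and 3.77 CPM, higher than in control_SMPD1 and lower than in control_GPR64 (log2 ratio -0.85). Genes of the primary cilium had a median of 0.11 over 50 genes.

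Ion channel and synaptic genes past the rule were scattered. Among ligand-gated channels 12 of 69 listed genes were tested. Of the glutamate receptor subunits past the rule, GRIN2C and GRIK1 entered only through siSMPD1. GRIN2D was at 6.77, 17.6 and 5.48 CPM, GRIN2C at 0.26, 2.12 and 0.685 CPM and GRIK1 at 0.625, 1.43 and 0 CPM. The calcium channel subunit gene CACNA2D4 was at 0.26, 1.91 and 0.685 CPM, while the epithelial sodium channel gene SCNN1G was 2-fold lower at 81.4, 40.6 and 36 CPM. Against control_GPR64 SCNN1G had a ratio of 0.17. Neuronal genes differed both ways: of 39 tested 2 were higher, among them CEND1, and 3 lower (VGF, MAP1A and MAP2). Over all genes tested 2.49% were higher and 1.11% lower. The other higher gene and MAP2 passed the CPM minimum only through the library in which they were high. VGF, a neuropeptide precursor, was at 6.09, 2.12 and 102 CPM, and CEND1 at 1.15, 5.25 and 0 CPM.

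Hypoxia-response genes had a median of 0.33 (0.42 GC-centred), with 4 of 28 higher (2.49% over all genes tested) and none lower. Against control_GPR64 the median was 1.21. ANGPTL4, an inhibitor of lipoprotein lipase, was at 4.27, 10.8 and 1.37 CPM, HIF3A at 3.7, 8.58 and 3.77 CPM and PPFIA4 at 11, 22.3 and 2.06 CPM. The lactate exporter SLC16A3 was at 13.7, 37 and 6.17 CPM, while 29 glycolysis genes had a median of 0.06. Oxidative phosphorylation genes had a median of -0.03 with none of 78 past the rule. BHLHE40, a repressor of the circadian clock, was 2.69-fold higher (2.21 to 3.29).

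The cell cycle lists lay near 0 while single regulators differed. Against control_GPR64 the G1/S median was 0.25 and the G2/M median -0.04. The median was -0.01 over 41 G1/S genes and 0.02 over 39 G2/M genes, with none past the rule. CDKN1A, the inhibitor p21, was at 30.7, 62.8 and 129 CPM, and thus higher than in control_SMPD1 and lower than in control_GPR64 (log2 ratio -1.04). Of the BH3-only genes that promote apoptosis, BMF was at 37.6, 99.4 and 27.1 CPM and PMAIP1 (NOXA), which ATF4 and p53 can both induce, at 132, 62.9 and 148 CPM. BMF was the highest and PMAIP1 the lowest in siSMPD1. EWS-FLI1-activated genes had a median of -0.06 with none of 46 past the rule (0.02 against control_GPR64), and FLI1, part of which is kept in the fusion, was at 85, 81.4 and 66.5 CPM. Genes that EWS-FLI1 represses had a median of 0.17 (0.18 GC-centred, 0.62 against control_GPR64). Of 33 tested 24 had a ratio above 0, 1 was higher and 2 were lower. Over all genes tested 49.5% of ratios were above 0, 2.49% of genes were higher and 1.11% lower. The fusion itself has no count of its own in these data.

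A count model that takes the 2 scrambled libraries as replicates of a single group left 1 degree of freedom between them. With Benjamini-Hochberg adjustment edgeR's quasi-likelihood test called 0 of 13664 genes (0.0%) at an adjusted p under 0.05, and 179 (1.31%) before adjustment. With DESeq2 the single gene called was ATF5 (0.00732% of genes), at an adjusted p of 0.00206, and again 179 genes (1.31%) had an unadjusted p under 0.05. ATF5 was at 670.5 and 1089 CPM in the controls and 156 CPM in siSMPD1, below both.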

How the data were processed

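Total RNA of A673 cells, depleted of ribosomal RNA, was sequenced from both ends in 4 libraries, 1 per group, per the labels' protocols. Deposited values are gene counts, made by the authors with bcl2fastq, TopHat2, SAMtools and HTSeq on hg19, per the submitters' processing notes; no versions are given there. HTSeq's summary lines were removed (no feature: 14.1% of entries in control_SMPD1 and 14.4% in siSMPD1; not unique: 30.1% and 29.1%). Whether counting used strand is not stated in the labels, so overlapping and antisense genes are uncertain.

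Counts were scaled by TMM (edgeR 4.0.16, R 4.3.3) to CPM. Log2 ratios add 0.5 counts, and exact (Clopper-Pearson) 95% intervals cover counting error only. The rule of size was a mean CPM of at least 1, at least 2-fold and an interval without equality. It was run on simulated counts that held counting error only, which leaves the spread between libraries uncovered. A library without a read was set at 3 counts where a bound is given. DESeq2 1.42.0 and edgeR also ran with both controls as 1 group. Transcript GC content came from GENCODE and was found for 96.1% of tested genes by symbol. Promoters came from RefSeq, with the first listed for each symbol. The printed genes were SMPD1 and sphingolipid genes, the 25 genes per direction with intervals furthest from equality, the 15 with the largest CPM difference, and list members past the rule or of largest ratio; some so chosen are not printed. The members and gene lists were chosen with earlier results of these data known. ASS1, ATF4, BCAT1, CHAC1, COL12A1, CTNNB1, DDIT3, DDIT4, EGR1, LAMP2, MMP14, NTN1, PSPH, SESN2, SLC7A1, TIMP2 and UNC5D lie outside that rule and were chosen after their values were seen.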

Additional observations from a re-analysis of the deposited data

How the results depend on the processing

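The counts of 318 higher and 141 lower genes stayed within 1.5 times under library size scaling, DESeq2 size factors, a prior of 2 counts and GC centring. Without the counting interval they were again 318 and 141, so at 2-fold the interval removed no gene. With a mean CPM of at least 5 they were 121 and 77, with a 1.5-fold rule 925 and 610, with a 3-fold rule 61 and 26, and without the CPM filter 228 genes were lower. With control_GPR64 as the control they were 1356 and 1034, and with the mean of both controls 486 and 527, of which 181 and 91 were among the original genes. With both controls as 1 group edgeR called 0 and 0, and DESeq2 0 and 1. SMPD1 had a log2 ratio of -2.17, and 0.80 with control_GPR64, -1.35 with the mean of both controls and -2.34 after GC centring. With control_GPR64 the direction reversed for 23 other named genes past the rule that had a read there, with log2 ratios of ALDH1L2 0.39, APOL4 -0.0044, BGN -0.48, CDKN1A -1.04, CXCL10 1.51, IL2RB -1.58, ITGA4 -0.89, LAMA5 -0.43, MAP1A 0.25, MFAP2 -0.087, MMP8 1.36, NEB 1.72, NTN3 -0.048, PCDHA1 1.20, PCOLCE -0.22, SCNN1G 0.17, SDC1 -0.14, SEMA3F -0.47, SLC2A11 -0.0896, SLC7A7 0.74, SNORD57 0.17, SPOCK1 0.30 and WDR63 -0.85. Of these, CXCL10, MMP8 and PCDHA1 had only 1 read each in control_GPR64. Some named genes short of the rule also changed sign. With the mean of both controls CDKN1A was at -0.35, IL2RB at -0.65, ITGA4 at -0.18 and WDR63 at -0.20. Among list medians, that of interferon-stimulated genes reversed to 0.94 with control_GPR64 and 0.19 with the mean of both controls, and that of snoRNA genes to 0.15 with control_GPR64 among genes passing the filter there. The cause was not tested. Leaving out a replicate was not possible with 1 library per group. No paired analysis was possible because each group held 1 library. At the depth of control_GPR64, 3 counts equal 1.03 CPM, against 0.156 CPM in control_SMPD1 and 0.159 CPM in siSMPD1.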

Other observations

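Small nucleolar RNAs, which guide modification of ribosomal RNA, were below control_SMPD1 in siSMPD1 at most tested genes. Of 388 such genes 51 were tested, 41 had a log2 ratio below 0, 2 were lower by the rule, and the median was -0.36. Over all genes tested 49.5% of ratios were above 0 and 1.11% of genes were lower. SNORA24 was at 1.46, 0.583 and 1.03 CPM and SNORD57 at 2.39, 1.17 and 1.03 CPM. Of these, SNORA24 passed the CPM minimum only through control_SMPD1. Against control_GPR64 the list median was 0.37, or 0.25 with its 3 genes without a read there set at 3 counts, and SNORD57 had a ratio of 0.17. The genes whose introns carry these RNAs had a median of -0.37 over 15 genes, and -0.86 against control_GPR64. Cytosolic ribosomal proteins had a median of -0.14 (-0.75 against control_GPR64), nucleolar ribosome biogenesis genes one of -0.17 and proteasome subunits one of -0.14, and none of these genes passed the rule.

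Some further families had single members past the rule, where 2.49% of all genes tested were higher and 1.11% lower. Of those named next, ARSI, RAB26, ABCG4 and S100A2 passed the CPM minimum only through siSMPD1. Of 14 sulphatase genes ARSI, at 0.989, 5.51 and 0 CPM, and ARSD, at 2.91, 7.58 and 4.11 CPM, were higher, and the median was 0.33 (0.24 GC-centred, 0.96 against control_GPR64). Of 45 Rab GTPase genes, which direct vesicle traffic, RAB26, RAB36 and RAB42 were higher, with RAB26 at 0.52, 3.92 and 1.37 CPM. The iron exporter SLC40A1 (ferroportin) was at 1.09, 2.33 and 2.06 CPM and the transferrin receptor TFR2 at 1.2, 2.6 and 0.343 CPM, while 18 iron genes had a median of 0.19. ABCG4, a sterol transporter, had 6, 32 and 0 reads in control_SMPD1, siSMPD1 and control_GPR64, and S100A2, a calcium-binding protein gene, was at 0.677, 2.65 and 0.685 CPM. The collagen-processing enhancer PCOLCE was at 15.6, 41.4 and 48.3 CPM, higher than in control_SMPD1 and below control_GPR64 (log2 ratio -0.22). TGFBR1, a receptor kinase of TGF-beta, was at 4.89, 10.5 and 8.91 CPM. Of 446 ZNF genes 285 had a ratio below 0, with a median of -0.11 (-0.07 GC-centred), 2 higher and 4 lower.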
